A study of Homo sapiens with 6 samples.

Results

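Monoamine oxidase A (MAOA) and the genes that make, store, take up and break down serotonin, dopamine and noradrenaline were read in CD44-positive and CD44-negative cells of the colorectal cancer line COLO-320DM. The 9 genes were MAOA, MAOB, DDC, TH, TPH1, DBH, SLC18A1, SLC18A2 and SLC6A4. Every probe set that the array's annotation assigned to one of these symbols alone was taken, which gave 20 of 54675 probe sets and 9 of 19775 genes. MAOA was chosen for its difference between these same arrays, so its values are given as a description with no test. The other 8 genes were chosen for their place in the same pathway.

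The amines are made from amino acids. Tyrosine hydroxylase (TH) turns tyrosine into L-DOPA, tryptophan hydroxylase (TPH1 outside the brain) turns tryptophan into 5-hydroxytryptophan, and aromatic amino acid decarboxylase (DDC) turns both products into dopamine and serotonin. The vesicular transporters SLC18A1 and SLC18A2 load the amines into storage vesicles, and SLC6A4 takes serotonin back into cells. MAOA and MAOB, flavin enzymes of the outer mitochondrial membrane, oxidise the amines, with hydrogen peroxide as a by-product, and MAOA prefers serotonin and noradrenaline. In the gut, enterochromaffin cells make serotonin with TPH1, while MAOA in the epithelium breaks it down.

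The study compared untreated COLO-320DM cells, all of one human line, after sorting by CD44, a hyaluronan receptor that is used as a marker of cancer stem cells. There were 3 arrays of CD44-positive and 3 of CD44-negative cells, numbered replicates 1 to 3 in each group. Whether the replicates were grown separately is not stated in the labels, and the p-values reflect the spread between these arrays alone, and that spread may be technical. Levels are log2 values of the deposited RMA intensity, differences are CD44-positive minus CD44-negative, and errors are the SD over 3 arrays.

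The arrays had median intensities from 44.9 to 46.5, and their log2 values correlated at 0.991 to 0.997. CD44 itself was at 7.70 ± 0.52 in CD44-positive arrays and 5.23 ± 0.22 in CD44-negative arrays (SD, n = 3), a difference of 2.47. A probe set was called dim where its mean over the 6 arrays lay below 5.12, the 30th percentile of all genes, and dim genes were left out of the tests. Of the 12 genes listed for colorectal epithelium, 10 were above this limit, with MYC, which is no epithelial marker, counted. CDX2, an intestinal transcription factor, was at 11.61 and 11.69 in the CD44-positive and CD44-negative cells. The adhesion genes EPCAM (4.40 and 4.87) and CDH1 (4.07 and 4.17), which epithelial cells usually carry, were dim. Of the 20 probe sets, 8 were above the limit, 3 of MAOA, 2 of DBH and 1 each of MAOB, DDC and SLC18A2, and the other 12 were dim.

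MAOA was lower in the CD44-positive cells on each of its 3 probe sets, by 2.02-fold to 2.89-fold. On its brightest probe set, 212741_at, MAOA was at 6.96, 7.19 and 7.08 in CD44-positive replicates 1, 2 and 3, and at 8.11, 7.87 and 8.30 in CD44-negative replicates 1, 2 and 3. All CD44-positive arrays lay below all CD44-negative arrays, with means of 7.08 ± 0.11 and 8.10 ± 0.22 (SD, n = 3). The difference was -1.02, or 2.02-fold lower, and the differences between arrays of the same number were -1.15, -0.68 and -1.22.

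A second MAOA probe set, 204388_s_at, was at 6.18, 6.08 and 6.31 in the CD44-positive arrays and at 8.12, 7.05 and 8.00 in the CD44-negative arrays. Its groups did not overlap either, and the difference was -1.53, or 2.89-fold lower. The remaining MAOA probe set, 204389_at, was at 5.42, 5.33 and 5.42 in the CD44-positive arrays and at 6.96, 6.25 and 7.01 in the CD44-negative arrays. These groups too did not overlap, with a difference of -1.35, or 2.54-fold lower. On this probe set the CD44-positive arrays lay close above the dim limit of 5.12.

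**Figure D1:**
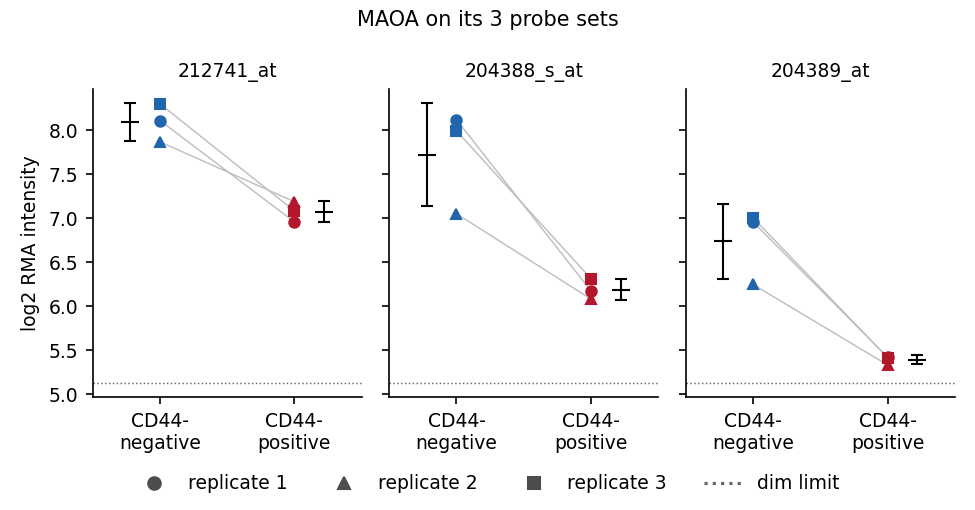
Log2 RMA intensity of MAOA on its 3 probe sets, with 1 panel per probe set, 1 point per array, grey lines between arrays of the same replicate number, and the mean and SD of each group beside its points. On all 3 probe sets the CD44-positive points lie below the CD44-negative points, with mean differences of -1.02, -1.53 and -1.35, and CD44-negative replicate 2 is the lowest of its group.

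The spread of MAOA was not alike in the sorts. Its SD over the 3 arrays was 0.050 to 0.12 across the probe sets in the CD44-positive cells and 0.22 to 0.58 in the CD44-negative cells. CD44-negative replicate 2 was the lowest CD44-negative array on all 3 probe sets. The 3 probe sets read 1 RNA sample per array and are not independent measurements of the cells. In sorted cells read in bulk, fewer cells carrying MAOA and less MAOA RNA per cell cannot be told apart.

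Among the 13842 genes tested, 4 had a difference below -1 and 12 above 1, and MAOA had the fourth lowest difference. Groups without overlap and lower in the CD44-positive cells were found for 3.21% of all 41091 probe sets with 1 gene and for 2.60% of the genes tested. MAOA was taken up for its difference in this contrast. With the replicate number as a block in the limma model, 8 genes were called (0.0578% of those tested), 4 of them lower in the CD44-positive cells (0.0289%). MAOA lay just inside the threshold of 0.05 in that fit. Since MAOA was chosen from this same contrast, that is no test of its difference. CDYL2, with a difference of 0.67, lay just outside, with an adjusted p from limma of 0.0526. Without the block, limma called no gene (0%) at this threshold, and 273 genes (1.97%) had an unadjusted p under 0.05. CD44, the marker of the sort, was not called there either, with an adjusted p from limma of 0.106, or 0.00176 with the block.

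The promoters of MAOA and MAOB are known for GC boxes, the sites that SP1 and related factors bind, so the 250 bases upstream of both starts are shown. They come from RefSeq on GRCh38.p14, MAOA at chrX:43656049-43656298 on the plus strand and MAOB at chrX:43882451-43882700 on the minus strand, each written 5′ to 3′ along its gene. Capitals mark the GC box GGGCGG or its reverse complement CCGCCC, with overlapping matches counted separately.
MAOA: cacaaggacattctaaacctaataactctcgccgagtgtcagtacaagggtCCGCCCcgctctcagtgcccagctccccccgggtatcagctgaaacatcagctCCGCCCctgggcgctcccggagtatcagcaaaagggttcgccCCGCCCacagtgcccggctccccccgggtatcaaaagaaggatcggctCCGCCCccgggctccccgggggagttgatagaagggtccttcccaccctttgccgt
MAOB: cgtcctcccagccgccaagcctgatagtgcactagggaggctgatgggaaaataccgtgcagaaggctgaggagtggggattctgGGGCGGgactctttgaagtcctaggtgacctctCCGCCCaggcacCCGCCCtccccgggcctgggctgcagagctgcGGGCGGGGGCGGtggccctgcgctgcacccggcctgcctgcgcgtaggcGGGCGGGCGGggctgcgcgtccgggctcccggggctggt
The MAOA stretch held 4 GC boxes, all on the strand opposite to the gene, and 63.2% G and C. The MAOB stretch held 7, with 5 on the gene's strand and 2 on the other, and 72.0% G and C. Of 35116 promoters of the same length, 42.6% held at least 1 GC box, 7.63% held 4 or more and 1.12% held 7 or more. RefSeq promoters were at hand for 7 of the 9 genes. SLC18A2 had 3 GC boxes, SLC6A4 had 1, and both DDC promoters, TPH1 and DBH had none. A match is a stretch of letters and does not show that a factor binds there.

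The factors taken here as regulators of the MAOA promoter were measured on the same arrays, and none was called. Of the 12 genes in that list, 11 were read and 10 were above the dim limit, 5 of them higher in CD44-positive cells and 5 lower, with a median difference of 0.013. SP1, an activator that binds GC boxes, was at 9.12 and 9.14 in the CD44-positive and CD44-negative cells, a difference of -0.015 (95% interval -0.37 to 0.34). SP3, a relative that competes for the same sites, differed by -0.083 (-0.29 to 0.12). KLF11, an activator of MAOA, differed by 0.082 (-0.29 to 0.45), and the repressor CDCA7L by 0.042 (-0.19 to 0.27). The deacetylase SIRT1 differed by -0.052 (-0.30 to 0.20). Among the 10 factors above the dim limit, the largest differences were those of GATA2, a zinc finger factor, at 0.24 (-0.11 to 0.58), and FOXO1, a repressor of MAOA, at 0.17 (-0.16 to 0.50). With the replicate block these intervals were 0.056 to 0.41 and 0.012 to 0.33, with adjusted p from limma of 0.518 and 0.621.

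MAOB, the sister enzyme that lies next to MAOA on the X chromosome and prefers phenylethylamine, was close to the dim limit and was not called. Its probe set 204041_at was at 5.33, 5.39 and 5.48 in the CD44-positive arrays and at 5.75, 5.32 and 5.75 in the CD44-negative arrays. The groups overlapped, since CD44-negative replicate 2 was the lowest of the 6 arrays. The difference was -0.21 (95% interval -0.51 to 0.093), with an adjusted p from limma of 1.00, or 0.720 with the replicate block. With the block the interval of MAOB was -0.44 to 0.025. The other 2 MAOB probe sets were dim and differed by 0.11 and 0.083.

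The 4 nearest genes on the array on either side of MAOA and MAOB were also read, in the gene order of RefSeq. Only CASK and FUNDC1 were above the dim limit, and neither was called by limma (adjusted p 1.00 for both). CASK, a scaffold kinase of cell junctions, differed by 0.017 (95% interval -0.21 to 0.24), and FUNDC1, a receptor for the removal of mitochondria, by -0.088 (-0.31 to 0.14). GPR34, GPR82, PPP1R2C, NDP, EFHC2 and DUSP21 were dim. Among these, NDP, which encodes norrin and follows MAOB, was at 3.38 and 3.73 in the CD44-positive and CD44-negative cells, and GPR82 was at 4.75 and 4.56.

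The enzymes of amine synthesis gave no call. DDC, the shared decarboxylase, was at 5.52, 5.47 and 5.68 in the CD44-positive arrays and at 5.94, 5.67 and 5.88 in the CD44-negative arrays on probe set 214347_s_at. It was lower in the CD44-positive array of each of the 3 pairs, with pair differences of -0.43, -0.20 and -0.20, but CD44-positive replicate 3 and CD44-negative replicate 2 overlapped. The difference was -0.28 (95% interval -0.52 to -0.030), with an unadjusted p of 0.0323 and an adjusted p from limma of 1.00, or 0.407 with the replicate block. With the block the interval of DDC was -0.46 to -0.096, with an unadjusted p from limma of 0.00821. In that fit 7.49% of all genes tested had an unadjusted p under 0.05. Of all genes tested, 14.8% were lower in all 3 pairs. The other DDC probe set, 205311_at, was dim and differed in the opposite direction, by 0.072.

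DBH, which makes noradrenaline from dopamine, was above the dim limit on both of its probe sets, and they differed in sign. On 206450_at it was at 5.74, 5.41 and 5.69 in the CD44-positive arrays and at 5.70, 5.91 and 5.60 in the CD44-negative arrays. The groups overlapped, and the difference of -0.13 (95% interval -0.41 to 0.16) came with pair differences of 0.031, -0.50 and 0.089. The sign therefore rested on replicate 2, and without that pair, in the fit with the replicate block, the difference was 0.060. On 206450_at the interval with the block was -0.40 to 0.15. On 234916_at DBH differed by 0.075.

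TH and TPH1, the entry enzymes of dopamine and serotonin synthesis, were dim on every probe set. TH was at 4.34 ± 0.23 in CD44-positive cells and 4.31 ± 0.14 in CD44-negative cells (SD, n = 3). TPH1 was at 3.63 ± 0.05 and 3.64 ± 0.15 on probe set 1553859_at, and its 3 probe sets ranged from 2.40 to 3.78 over the 6 arrays. Dim values lie near the background, so these levels do not show whether the RNA is present.

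The transporters were dim or near the limit and were not called. SLC18A2, the vesicular transporter of neurons, was at 5.33, 5.31 and 5.06 in the CD44-positive arrays and at 5.52, 5.06 and 5.17 in the CD44-negative arrays. The groups overlapped, with a difference of -0.015 (95% interval -0.33 to 0.30) and an adjusted p from limma of 1.00. With the replicate block the interval of SLC18A2 was -0.24 to 0.21. SLC18A1, its counterpart in endocrine cells, was dim at 3.31 ± 0.16 and 3.38 ± 0.13 (SD, n = 3). SLC6A4 was dim too, at 4.80 ± 0.15 and 4.70 ± 0.14 on 207519_at, and its 3 probe sets ranged from 2.12 to 4.97.

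**Figure D2:**
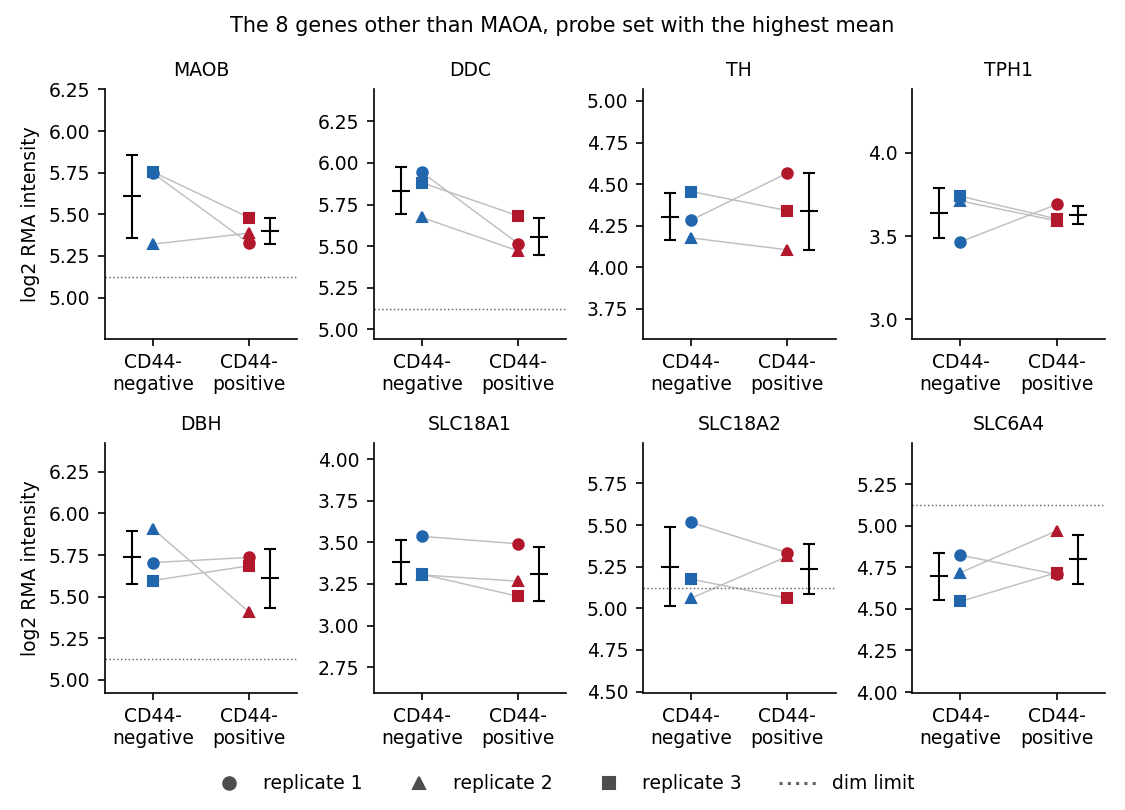
Log2 RMA intensity of the 8 other genes on the brightest probe set of each, with 1 panel per gene, 1 point per array, the replicate number as the symbol and the mean and SD of each group. The groups overlap in every panel, DDC and MAOB show the largest differences at -0.28 and -0.21, and TH, TPH1, SLC18A1 and SLC6A4 are dim.

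Over the 17 probe sets of these 8 genes, no groups were free of overlap, against 6.55% of all probe sets with 1 gene, 9 had a lower and 8 a higher CD44-positive mean, and the differences ran from -0.28 to 0.11. Of the 8 genes, 4 passed the dim limit. On the brightest probe set, all 4 of these were lower in the CD44-positive cells, as were 7075 of the 13842 genes tested. Their median was -0.17, against -0.0025 over all genes tested. The shared direction was not stable, since DBH differed by 0.075 on 234916_at and SLC18A2 changed sign in 5 of 24 alternatives. None of the 4 was called by limma with or without the block, where 0% and 0.0578% of all genes were called. Only DDC had an unadjusted p under 0.05.

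The wider pathway was read from 10 lists by role, with 83 of 95 genes read and 57 above the dim limit. The CD44-positive level was higher for 26 of these and lower for 31, with a median difference of -0.015. Limma called none with or without the block, 1 gene had an unadjusted p under 0.05 without the block (1.97% of all genes), and 6 with it (7.49% of all genes). Groups did not overlap for 3 of the 57, against 5.43% of all genes tested.

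Among the other synthesis enzymes, 2 of 5 genes read were above the limit. HDC, which makes histamine from histidine, was at 10.79, 10.90 and 11.23 in the CD44-positive arrays and at 10.46, 10.75 and 11.26 in the CD44-negative arrays. Replicate 3 was the highest array in both sorts, the groups overlapped, and the difference was 0.15 (95% interval -0.33 to 0.62). PNMT, which makes adrenaline, differed by 0.075 (-0.18 to 0.33). TPH2, the tryptophan hydroxylase of the brain, was dim at 2.98 and 3.00.

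All 7 genes read for tetrahydrobiopterin, the cofactor that TH and the tryptophan hydroxylases need, were above the limit, 3 higher and 4 lower with a median of -0.0080. GCH1, the entry enzyme of its synthesis, was at 7.57 ± 0.09 and 7.58 ± 0.02 (SD, n = 3). The largest differences were -0.11 for PCBD2, which helps recycle the cofactor, and 0.088 for SPR, which completes its synthesis. The riboflavin genes that supply the flavin of MAOA gave 2 higher and 3 lower of 5, with a median of -0.062. RFK, riboflavin kinase, differed by -0.15 (95% interval -0.38 to 0.076) and FLAD1, which makes the flavin itself, by -0.075.

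Other enzymes of breakdown gave 4 higher and 3 lower of 7 above the limit, with a median of 0.030. ALDH2, which oxidises the aldehydes that MAOA releases, was at 10.94 ± 0.14 and 10.89 ± 0.01 (SD, n = 3), a difference of 0.052. The largest differences were -0.24 for the copper amine oxidase AOC3 (95% interval -0.65 to 0.17) and 0.17 for the aldehyde dehydrogenase ALDH1A1 (-0.37 to 0.71). With the replicate block the interval of ALDH1A1 was 0.012 to 0.32, with an adjusted p from limma of 0.621. On the kynurenine route, which uses tryptophan without making serotonin, 4 were higher and 3 lower of 7. TDO2, its entry enzyme in liver, was at 5.58, 6.16 and 5.22 in the CD44-positive arrays and at 4.93, 5.59 and 5.37 in the CD44-negative arrays. The groups overlapped, and the difference of 0.36 (-0.22 to 0.93) had an adjusted p from limma of 1.00. With the replicate block the interval of TDO2 was 0.0047 to 0.71, with an adjusted p from limma of 0.662. Without replicate 3, in the fit with the block, its adjusted p was 0.0167, the one setting in which it passed.

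The amine and amino acid transporters gave 3 higher and 4 lower of 7, with a median of -0.032. SLC6A2, the noradrenaline transporter, was at 5.89, 5.95 and 6.11 in the CD44-positive arrays and at 5.84, 5.69 and 5.80 in the CD44-negative arrays. The groups did not overlap, but limma did not call the difference of 0.21 (95% interval -0.013 to 0.42, adjusted p 1.00, or 0.590 with the block). With the block the interval of SLC6A2 was 0.026 to 0.38. SLC7A8, a carrier of large neutral amino acids, was at 9.86, 9.94 and 9.45 in the CD44-positive arrays and at 9.18, 10.01 and 9.24 in the CD44-negative arrays. The groups overlapped, and the difference was 0.27 (-0.25 to 0.80). Its other probe sets, all above the limit, were higher in the CD44-positive cells too. On 216603_at the difference was 0.37 and the groups did not overlap, against 5.58% of all probe sets above the limit. That probe set was not called when each was tested singly, with an adjusted p from limma of 0.258 with the block.

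**Figure D3:**
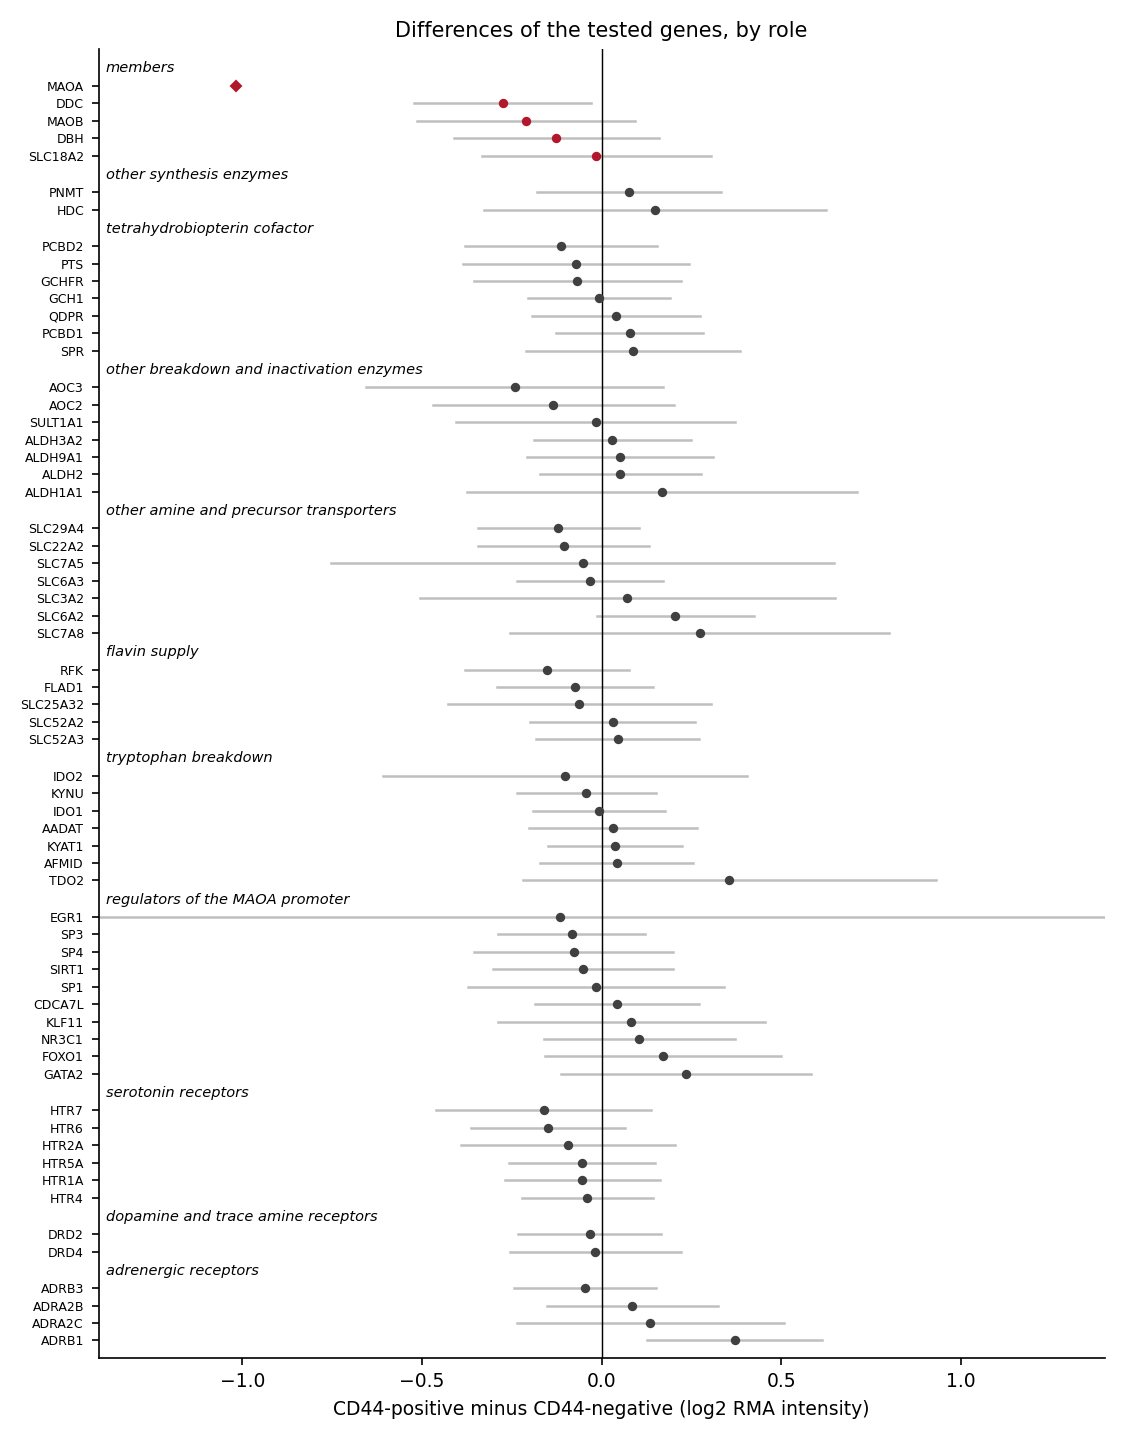
Difference of each gene above the dim limit on the log2 scale, CD44-positive minus CD44-negative, grouped by role, with limma's 95% interval as a grey bar and no interval for MAOA, which was chosen for its difference. MAOA stands at -1.02, all other genes lie between -0.28 and 0.37, and the interval of EGR1 runs past both ends of the axis, from -3.01 to 2.77. The bars are from the fit without the replicate block, and with the block the interval of EGR1 was -0.62 to 0.38.

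Receptors for the amines were mostly near the limit. On the brightest probe set of each, all 6 serotonin receptors above it were lower in the CD44-positive cells, as were 7075 of the 13842 genes tested. The receptor differences were -0.16 to -0.040 with a median of -0.074, and none was called. Other probe sets above the limit differed in the opposite direction for HTR2A, by 0.077, and for HTR4, by 0.72. HTR7 differed by -0.16 (95% interval -0.46 to 0.14) and HTR6 by -0.15 (-0.36 to 0.066), the latter with groups that did not overlap. The dopamine receptors DRD2 and DRD4 differed by -0.033 and -0.018. Of the adrenergic receptors, ADRB1, the beta receptor of the heart, was at 5.72, 5.84 and 5.52 in the CD44-positive arrays and at 5.35, 5.24 and 5.38 in the CD44-negative arrays. The groups did not overlap, and the difference was 0.37 (0.13 to 0.61), with an unadjusted p of 0.00804 and an adjusted p from limma of 1.00, or 0.353 with the block. With the block the interval of ADRB1 was 0.15 to 0.59. ADRA2C differed by 0.14 (-0.24 to 0.51).

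HTR4, a serotonin receptor of gut muscle, nerves and epithelium, was picked out after its values were seen, because its probe sets did not move together. On 207577_at it was at 7.25, 7.31 and 6.89 in the CD44-positive arrays and at 6.47, 6.52 and 6.31 in the CD44-negative arrays. The groups did not overlap, and HTR4 was higher by 0.72, or 1.64-fold, in the CD44-positive cells and in all 3 pairs. When every probe set above the limit was tested singly, limma gave this one an adjusted p of 1.00 without and 0.0299 with the replicate block, where 0.0115% and 0.107% of 26117 probe sets were called. On 207578_s_at, the probe set that stood for HTR4 in the tests above, the arrays ran from 7.56 to 7.63 in CD44-positive cells and from 7.60 to 7.64 in CD44-negative cells, a difference of -0.040. The HTR4 probe set 216939_s_at was dim. Of the 162 probe sets of the wider lists, 92 were above the limit, and 5 of these had groups without overlap, 4 higher and 1 lower, against 5.58% of all probe sets above it in either direction and 2.70% lower.

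**Figure D4:**
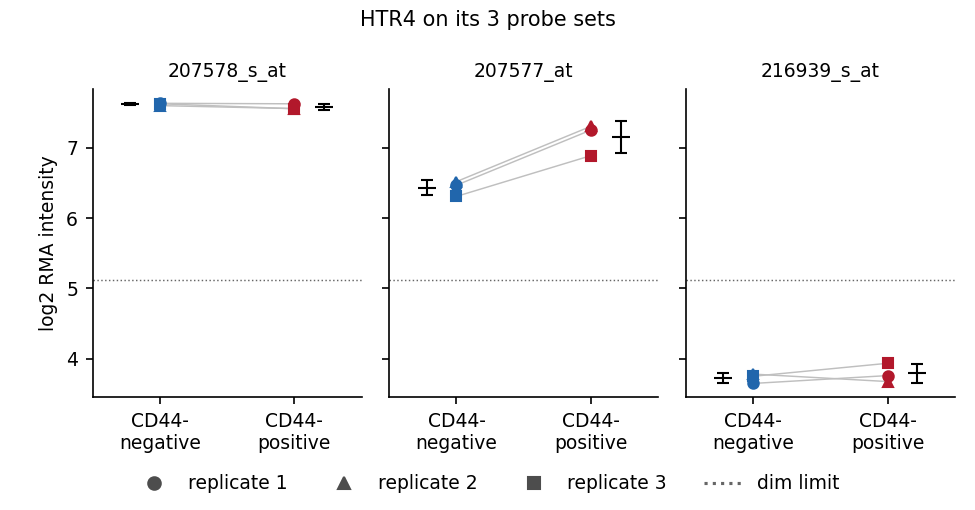
Log2 RMA intensity of HTR4 on its 3 probe sets, with 1 panel per probe set, 1 point per array, grey lines between arrays of the same replicate number, the mean and SD of each group, and a dotted line at the dim limit of 5.12. HTR4 is higher by 0.72 in the CD44-positive cells on 207577_at and differs by -0.040 on 207578_s_at.

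Some genes of the pathway followed the replicate number and not the sort. They were picked out after their values were seen. EGR1, an immediate early factor, was read in the list for the MAOA promoter, and its binding there was not tested. EGR1 was at 5.14, 5.84 and 8.88 in CD44-positive replicates 1, 2 and 3 and at 5.60, 5.18 and 9.42 in the CD44-negative ones. Replicate 3 was the high array in both sorts. SLC7A5, the carrier that brings tryptophan and tyrosine into cells, was at 10.48, 10.71 and 9.84 in the CD44-positive arrays and at 10.38, 10.97 and 9.84 in the CD44-negative arrays. Its partner chain SLC3A2 was at 9.78, 9.99 and 9.25 and at 9.55, 10.07 and 9.19. Both were highest in replicate 2 and lowest in replicate 3 of either sort. MAOA had its lowest CD44-negative and its highest CD44-positive value in replicate 2 on the main probe set, 212741_at. On 204388_s_at and 204389_at, however, replicate 2 was the lowest MAOA array in both sorts.

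**Figure D5:**
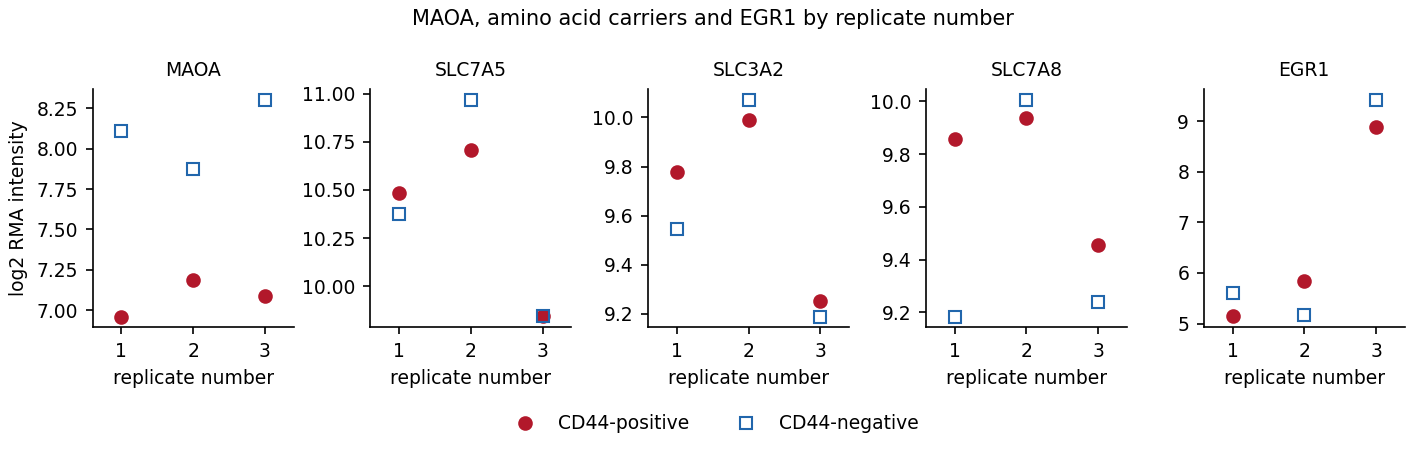
Log2 RMA intensity against the replicate number, with 1 panel per gene, filled circles for CD44-positive and open squares for CD44-negative arrays. EGR1 is high in replicate 3 of both sorts, at 8.88 and 9.42, SLC7A5 and SLC3A2 are low there, at 9.84 and 9.84 and at 9.25 and 9.19, SLC7A8 is highest in replicate 2 of both sorts, and MAOA is lower in the CD44-positive array of every number.

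The genes whose levels over the 6 arrays were most like those of MAOA, among 13841 others, were LOC100507403 (Pearson's r 0.99), TSNAXIP1 (0.98), CDK7 (0.98) and SNORC (0.98). Their own differences were small, from -0.19 to -0.053. The genes most opposed to MAOA were RNF4 (-0.97), ANAPC7 (-0.97), SNX9 (-0.96) and H2BC12 (-0.96), with differences of 0.099 to 0.22. For deviations from the group means, r with MAOA was 0.82 to 0.99 for the first 4 and -0.89 to -0.64 for the second 4. Among the genes of the pathway, r was 0.85 for DDC, 0.73 for MAOB, 0.19 for DBH and 0.096 for SLC18A2. For the deviations it was 0.50 for DDC, 0.82 for MAOB, -0.90 for DBH and 0.20 for SLC18A2, so that of DBH changed sign. CD44 had an r of -0.94 over the 6 arrays and -0.13 for the deviations. These values describe 6 arrays in 2 groups that share replicate numbers, and the extremes of many genes are high by selection.

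Markers of other cells that carry these genes were read beside them. Of the enterochromaffin markers, 2 of 10 read (FEV and PAX4) were above the dim limit, their summed intensity was 199 to 230 in CD44-positive arrays and 189 to 217 in CD44-negative arrays, and the secretory granule gene CHGA was dim at 3.56 and 3.58. Of the markers of catecholamine cells 5 of 6 were above the limit, with sums of 419 to 479 and 395 to 452. Mast cell markers gave 3 of 6, with sums of 1967 to 2640 and 1618 to 2678, in which HDC is counted. Platelet markers gave 4 of 6, with sums of 286 to 289 and 278 to 312, and leukocyte markers 2 of 5, with 259 to 262 and 258 to 280. Fibroblast markers gave 6 of 9, with sums of 1528 to 3719 and 1214 to 2343. The collagen COL3A1 was higher in the CD44-positive array of all 3 pairs, with pair differences of 1.02, 0.57 and 0.75. Its difference was 0.78 (95% interval -0.35 to 1.91, or 0.56 to 1.00 with the replicate block), with an adjusted p from limma of 1.00, or 0.0526 with the block, close to the threshold. The matrix gene LUM, dim on average, was at 5.63, 4.18 and 3.84 in the CD44-positive and 2.36, 2.79 and 2.44 in the CD44-negative arrays. DCN, another fibroblast gene, differed by -0.036. All samples were of 1 line per the labels, so these values are array readings of that line. The dim limit is a percentile over genes, so passing it does not show that a gene is expressed. The platelet gene GP9 passed it at 6.69 and 6.68 in the CD44-positive and CD44-negative cells, and the catecholamine marker PHOX2A at 6.02 and 6.01. Any link of the marker genes to the MAOA difference was not tested. The sums over the colorectal list were 23799 to 25612 and 24397 to 25999, in which MYC, which is no epithelial marker, is counted at 14.04 and 14.06 on the log2 scale.

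RNA quality was read from the 3′ minus the 5′ control probe sets, on the log2 scale. For GAPDH it was -0.12 to -0.055 in CD44-positive arrays and -0.080 to -0.060 in CD44-negative arrays, and for ACTB -0.069 to 0.14 and 0.0016 to 0.083. Both groups overlapped on these measures.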

How the data were processed

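Per the labels, biotin-labelled total RNA of sorted COLO-320DM cells was read on Affymetrix arrays, 3 for each sort. The deposited values are intensity values from RMA, which corrects background, equalises the distributions of arrays and summarises probes, per the submitters' processing notes, with version, software and build not given in the sources used here. At first the design assumed log2 values, but the deposited table was linear, so log2 was taken with no pseudocount. RMA can compress differences near the background.

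The annotation named 1 gene for 41091 of 54675 probe sets, several for 1801 and none for 11721, and 62 were controls. Gene IDs of 41037 probe sets were found in the RefSeq gene table, and 54 kept the annotation's symbol. Each gene was tested on its brightest probe set (highest mean), after removing genes below the 30th percentile, with limma 3.58.1 (lmFit and eBayes, R 4.3.3), two-sided, Benjamini-Hochberg over 13842 genes, threshold 0.05. Tables and figures used Python 3.11.15, pandas 2.3.3, numpy 2.4.6 and matplotlib 3.10.9. Intervals are 95% intervals of that fit, without the replicate block unless the block is named. Without the block, differences between replicate numbers count as spread within a sort. The test was tested on simulated data first.

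Deviations from the group means correlated at 0.465, 0.689 and 0.626 between arrays of the same number, and at -0.496 to -0.107 between others. Deviations sum to 0 within a sort, so positive values for shared numbers push the others below 0. The negative values are therefore no separate evidence. Numbers were taken to pair the arrays because of the positive values. This pairing comes from the data, since no label states a shared day or culture.

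The genes and lists were chosen with earlier results of these data known. All 9 genes were named, the genes of each wider list that were called or else the 2 with the largest differences, the 4 most like and most opposed to MAOA, and the neighbours. GCH1, ALDH2, TPH2, SP1, SP3, KLF11, CDCA7L, SIRT1, EGR1, SLC7A5, SLC3A2, HTR4 and the markers shown were named after their values were seen. Alternatives were median centring, quantile normalization, other dim limits, other choices of probe sets, a variance trend, array weights, leaving out arrays, and the replicate block with each.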

Additional observations from a re-analysis of the deposited data

How the results depend on the processing

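MAOA lay between -1.30 and -0.87 over 29 settings, -1.30 being the mean of its probe sets, both with and without the replicate block. It was -1.13 to -0.91 with 1 array left out, and -1.19 to -0.92 with the block and 1 pair left out. None of the other 8 genes was called in any alternative that tested them. Most tested the same number as before, 4, while no dim filter tested all 8, the mean of probe sets 2, and a limit at the 50th percentile 0, so TH, TPH1, SLC18A1 and SLC6A4 were tested only with no dim filter. The lowest adjusted p from limma was 0.223 for DDC and 0.475 for MAOB. The number of genes called over the whole array was 0, against 2 with no dim filter, 1 without _s_at or _x_at probe sets, 3 over every probe set, 1 with array weights and 0 to 1 with 1 array left out. With the replicate block it was 8. With the block it was 18 after median centring, 4 after quantile normalization, 5 with no dim filter, 16 with a limit at the 50th percentile, 6 for the mean of probe sets, 20 without _s_at or _x_at probe sets, 28 over every probe set, 78 with a trended variance, 43 with array weights, and 17, 61 and 105 without replicate 1, 2 and 3. The causes of these moves were not tested. In the wider lists 1 gene was called with the block without _s_at or _x_at probe sets and over every probe set (HTR4 in both), and 1 without replicate 3 (TDO2). Within the wider lists and the other 8 genes, the block changed no other call. Some differences near 0 that were not called changed sign. With 1 array left out, SLC18A2 ranged from -0.11 to 0.12, HDC from -0.034 to 0.37, SPR from -0.017 to 0.17, ALDH1A1 from -0.051 to 0.38, IDO2 from -0.31 to 0.094, DRD2 from -0.078 to 0.0012, DRD4 from -0.074 to 0.058, and ADRA2C from -0.0069 to 0.27. ALDH1A1 was also -0.051 with array weights. With the block, SLC18A2 was 0.10 with array weights and 0.069 and 0.035 without replicates 1 and 3, and without replicate 2 DBH was 0.060, DRD2 0.0049 and DRD4 0.078. With 3 arrays a group, and with 12 of the 20 probe sets dim, small differences of these genes could not be called. Without the block, even the CD44 difference of 2.47 was not called, so the lack of a call in that fit says little.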

Other observations

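KRT20, a keratin of mature intestinal epithelium, was higher in the CD44-positive cells, at 6.67, 7.23 and 7.02 against 6.33, 6.10 and 6.60 in the CD44-negative arrays. The groups did not overlap, and the difference was 0.63 (95% interval 0.23 to 1.03), with an adjusted p from limma of 1.00, or 0.298 with the replicate block. With the block the interval of KRT20 was 0.28 to 0.97. EPCAM, which is dim, was at 4.49, 4.63 and 4.08 against 4.90, 4.98 and 4.74. COL1A2, a fibrillar collagen, was at 5.36, 5.35 and 5.50 against 5.03, 5.04 and 5.20, with groups that did not overlap, while COL1A1 differed in the other direction by -0.23, with groups that did not overlap either. Groups did not overlap in either direction for 5.43% of all genes tested. Of the 10 tested genes on the colorectal epithelium list, 4 were higher in the CD44-positive cells and 6 lower. KRT20, EPCAM, COL1A2 and COL1A1 were picked out after their values were seen.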
